A study of Mus musculus with 4 samples.

Results

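Cxcl9, Cxcl10 and Cxcr3 were followed through every myeloid and lymphoid class of 4 single-cell RNA libraries. They are the genes of 1 chemokine receptor and of its ligands that the probe set covered, 3 of the 19059 genes measured, and were taken by name, with earlier results of these data known. The chemokines CXCL9 and CXCL10 are secreted mainly by myeloid and stromal cells exposed to interferon gamma, and they attract cells that carry their shared receptor, CXCR3. CXCR3 is a G protein-coupled receptor found on type 1 helper T cells, activated CD8 T cells, natural killer (NK) cells and plasmacytoid dendritic cells (DCs), and in tumors the axis is known for guiding such lymphocytes towards interferon-exposed myeloid cells. The ligand CXCL11 was not analysed here. C57BL/6 mice, the background of the host strain, carry a null allele of its gene.

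The cells came from MC38 tumors, a transplanted mouse colon carcinoma, in B-hCTLA-4 mice, a strain in which CTLA-4 is humanized. Viable CD45-positive cells were sorted, fixed and profiled with the probe-based Chromium Flex assay, and the deposited values are counts of unique molecular identifiers (UMIs), each standing for 1 captured molecule. Each of the 4 groups is 1 library, which the labels describe as pooled from 11 mice after 3 treatments on day 8, with tumors of about 100 mm3 and 1 batch for all groups. The isotype library received human IgG1 isotype control at 10 mg/kg. The combination library received ipilimumab, a human IgG1 antibody to human CTLA-4, at 10 mg/kg with AT130-2 mIgG1-N297A, an Fc-mutated antibody to mouse FcgRII, at 20 mg/kg. The article gives another ipilimumab dose, another FcgRII antibody dose and fewer tumors per group, and the labels are followed here. For both remaining libraries the title and the treatment field name different antibodies, so they are called by their titles (anti-human CTLA-4, or anti-mouse FcgRII) and nothing below says which of them received which antibody. With 1 library per group there is no replicate error, group and library cannot be told apart, and groups were compared without a test. Intervals are at the 95% level and cover counting error only, and they are exact except for ratios of shares of cells, where they are approximate.

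Libraries held between 6097 and 8173 cells and between 129151823 and 196362818 UMIs. Cells with at least 500 genes and at most 10% mitochondrial UMIs were kept, which left 8148 cells of isotype control, 6364 titled anti-human CTLA-4, 6083 titled anti-mouse FcgRII and 7599 of the combination, the order used for every series of 4 values below. No full cell barcode was shared between libraries. Cells were put into classes by the summed UMIs of marker genes, none of which was a member. Macrophages were the largest class, with 4023, 3341, 4142 and 3441 cells, and classical monocytes numbered 1064, 719, 464 and 734. Ptprc, the gene of the sorted antigen CD45, was between 489 and 599 UMIs per 1000000 in macrophages and between 17.3 and 31.0 in the few tumor or stromal cells. Cells with at least 32 UMIs per 10000 of the macrophage list, or 64 of the classical monocyte list, that also held at least 2 per 10000 of a T cell or NK cell list were set apart as mixed profiles, 1770, 715, 729 and 1574 of them, so macrophages and monocytes below are cells with few lymphocyte UMIs. They made up 21.7%, 11.2%, 12% and 20.7% of kept cells and had median UMI counts between 29047 and 37159.5, against 16866 to 23124 in macrophages. No doublet caller was run, and whether these are doublets was not tested.

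Cxcl9 (ENSMUSG00000029417) and Cxcl10 (ENSMUSG00000034855) lie next to each other on chromosome 5 of GRCm38, both on the minus strand, at chr5:92321347-92328079 and chr5:92346638-92348889, with 18558 bases between them. Cxcr3 (ENSMUSG00000050232) lies at chrX:101731535-101734269, also on the minus strand. The 250 bases upstream of each chemokine gene are shown because the neighbours differed below in the level of type I interferon-stimulated genes in the cells that held them. The sequences are from RefSeq (GRCm38.p6), written 5′ to 3′ in the direction of transcription, from chr5:92328080-92328329 for Cxcl9 and chr5:92348890-92349139 for Cxcl10. Capitals mark matches, on either strand, of the interferon-stimulated response element (ISRE, searched as GAAA, 2 bases of any kind, GAAA), the gamma-activated site (GAS, searched as TTC, 3 bases of any kind, GAA) or the NF-kB consensus. The latter was searched as GGG, A or G, any base, A or T, 2 bases that are each C or T, and CC.
Cxcl9: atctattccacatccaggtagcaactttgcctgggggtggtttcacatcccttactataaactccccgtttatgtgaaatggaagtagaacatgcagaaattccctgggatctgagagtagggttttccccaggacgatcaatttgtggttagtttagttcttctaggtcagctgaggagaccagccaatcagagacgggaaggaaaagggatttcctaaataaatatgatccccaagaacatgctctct
Cxcl10: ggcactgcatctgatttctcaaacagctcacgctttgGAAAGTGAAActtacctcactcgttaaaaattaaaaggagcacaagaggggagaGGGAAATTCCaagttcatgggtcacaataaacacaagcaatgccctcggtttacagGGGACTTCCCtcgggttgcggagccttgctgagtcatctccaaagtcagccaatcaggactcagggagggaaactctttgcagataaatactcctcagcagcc
The Cxcl10 window held 1 ISRE match, from 213 to 204 bases upstream of the start, and 2 NF-kB matches, from 159 to 150 and from 103 to 94 bases upstream. No full match of these 3 motifs was found in the Cxcl9 window, which says nothing of near matches in it or of sites elsewhere. Of 32841 mouse promoter windows in the RefSeq table, 2.98% held the ISRE letters, 7.02% the GAS letters and 3.90% the NF-kB consensus. A match is a match of letters and not a bound site.

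Cxcl9 was highest in macrophages of the combination library. Levels are given as UMIs of the gene per 1000000 UMIs of the class (CPM). In macrophages Cxcl9 stood at 799 (95% interval 793 to 805), 1525 (1517 to 1534), 685 (679.6 to 690.1) and 2048 CPM (2039 to 2057). The combination was therefore highest and the library titled anti-mouse FcgRII lowest, slightly below isotype control. The combination stood 2.56 times above isotype control (2.54 to 2.59), 1.34 times above the library titled anti-human CTLA-4 (1.33 to 1.35) and 2.99 times above the library titled anti-mouse FcgRII (2.96 to 3.02). The titled anti-human CTLA-4 library itself stood 1.91 times above isotype control (1.89 to 1.93). Among 4626 genes with at least 50 CPM in macrophages of either library, 102 (2.20%) were at least 2-fold higher in the combination and 34 (0.735%) at least 2-fold lower than in isotype control, and both chemokines were among the 102.

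Classical monocytes, the blood-derived precursors of tumor macrophages, followed the combination but not the order of the other libraries. Their Cxcl9 level was 555, 743, 797 and 1305 CPM, so that both single-antibody libraries were above isotype control on this scale. The share of monocytes with Cxcl9 at 2000 UMIs per cell did not give that order for the library titled anti-mouse FcgRII, at 0.891 of the isotype share (0.710 to 1.12). The combination-to-isotype ratio was 2.35 (2.28 to 2.43), beside 2.19% of 4562 genes at least 2-fold higher and 0.745% at least 2-fold lower in this class. Dendritic cells marked by Cd209a, a monocyte-associated DC population, held 482, 569.7, 445 and 790.4 CPM, with a ratio of 1.64 (1.48 to 1.82). The ratio of their shares of cells at 2000 UMIs was 1.65 (0.996 to 2.74), an interval that holds both directions. In type 1 conventional DCs (cDC1), the cross-presenting DCs, Cxcl9 was 367, 460.4, 701 and 496 CPM, from only 15, 16, 5 and 9 cells, and 1 cell held 96.0% of the isotype UMIs, so that the ratio went from 1.35 (0.928 to 1.99) to 15.1 without the top cell of each library. In migratory DCs, which carry antigen to lymph nodes, it was 55.9, 1082, 691 and 1105 CPM in 38, 21, 11 and 42 cells. All 3 antibody libraries thus lay above isotype control in the migratory DCs, on few cells. For Cd209a DCs, cDC1 and migratory DCs together, called dendritic cells below, the ratio was 2.11 (1.93 to 2.31), beside a background of 3.41% of 4961 genes at least 2-fold higher and 1.41% at least 2-fold lower. Cd209a DCs gave 698 of the 765 Cxcl9 UMIs of this class in isotype control and 819 of 1407 in the combination. Nonclassical monocytes, which patrol vessels, held Cxcl9 at 30.6, 154, 169 and 326 CPM and Cxcl10 at 59.6, 221, 312 and 247 CPM, in 93, 81, 22 and 37 cells.

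Cxcl10 was also highest in the combination, but the order of its source classes differed from that of Cxcl9. In macrophages it stood at 272 (268 to 275), 412 (407 to 416), 257 (254 to 260.3) and 618 CPM (613 to 623), a combination-to-isotype ratio of 2.27 (2.24 to 2.31). In classical monocytes it was 485, 531, 486 and 1076 CPM, a ratio of 2.22 (2.14 to 2.30). The 3 other libraries were close to each other there, between 485 and 531 CPM, and each was below every interval of the combination, which began at 1054 CPM. Monocytes held more Cxcl10 per UMI than macrophages in each library, whereas they held less Cxcl9 than macrophages in 3 of the 4 libraries, the library titled anti-mouse FcgRII being the exception. In Cd209a DCs Cxcl10 was 132, 227, 177 and 274 CPM, with a ratio of 2.08 (1.72 to 2.51), from 123, 102, 53 and 72 cells. That ratio is one of levels and says nothing of the share of these cells that held Cxcl10. cDC1 held 1, 1, 1 and 2 UMIs of Cxcl10 in all, beside 50, 83, 45 and 69 UMIs of Cxcl9. Migratory DCs held 1, 41, 10 and 254 UMIs of Cxcl10, again fewest in isotype control. The macrophage complement genes C1qa, C1qb and C1qc summed to 132, 113, 96.0 and 811 CPM in migratory DCs. The part of macrophage RNA in the chemokine UMIs of migratory DCs was not tested. Plasmacytoid DCs held 4, 1, 1 and 82 UMIs of Cxcl9, and without the top cell the combination level was 44.1 CPM.

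**Figure D1:**
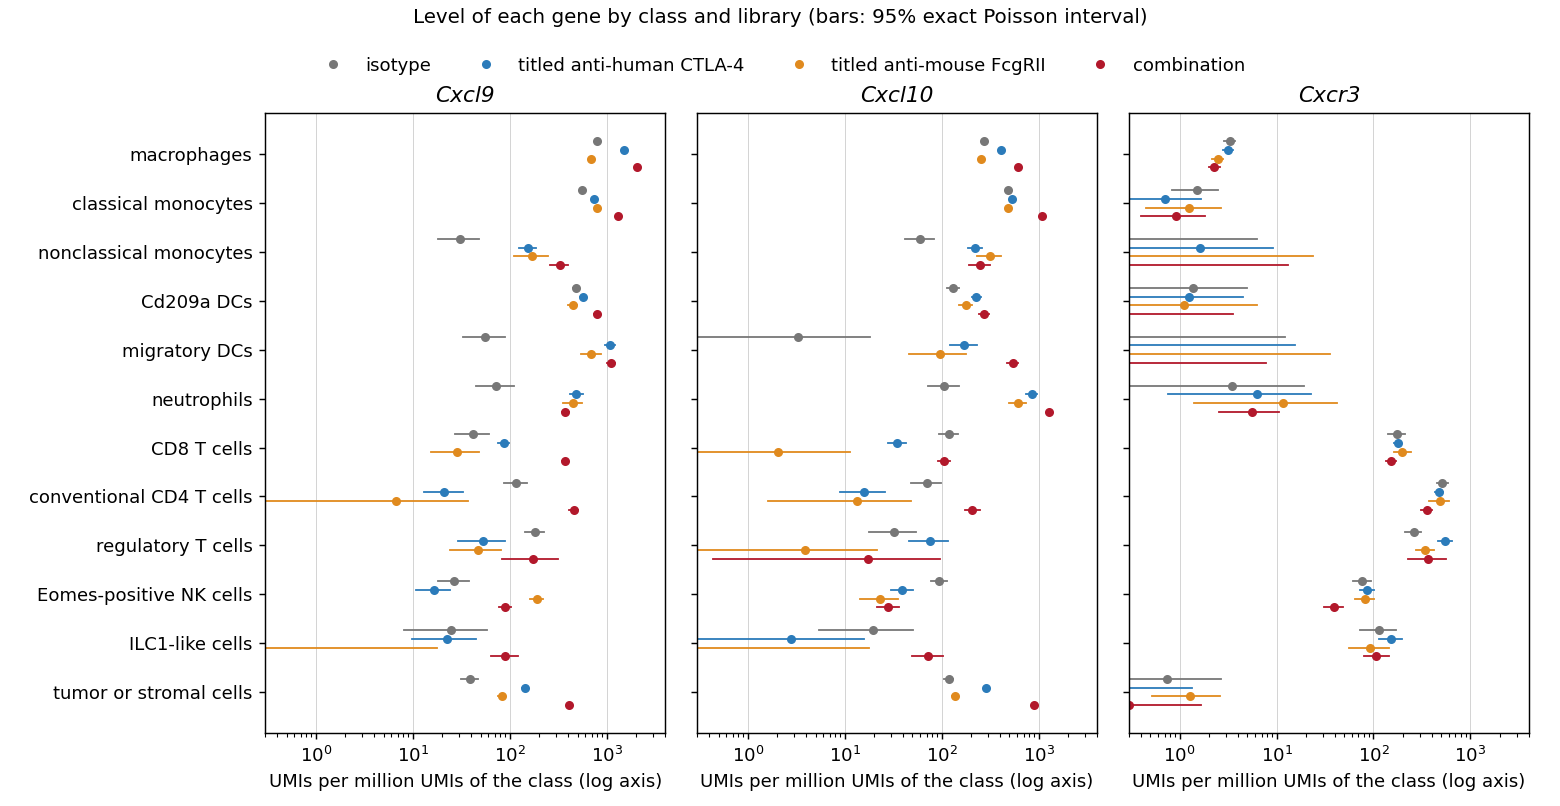
Level of Cxcl9, Cxcl10 and Cxcr3 (UMIs per 1000000 UMIs of the class, log axis) in each class and library. Points are the summed level of a class in 1 library, and bars are exact 95% Poisson intervals of the count; a level of 0 is a bar alone, from the left edge to its upper bound. Both ligands peak in myeloid classes, with Cxcl9 in macrophages at 799, 1525, 685 and 2048 CPM, and Cxcr3 is high in CD4 T cells, with 514, 478, 482 and 354 CPM in the conventional ones.

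Neutrophils were few, and their Cxcl10 level in CPM was far lower in isotype control than in the other libraries. They numbered 91, 80, 42 and 396 cells, and their Cxcl10 level was 107, 846, 607 and 1277 CPM from 31, 269, 105 and 2083 UMIs. The combination-to-isotype ratio was 12 (8.42 to 17.7), and 16.5 without the top cell of each library, beside a background of 8.96% of 3536 genes at least 2-fold higher and 8.12% at least 2-fold lower. For the share of neutrophils with Cxcl10 at 2000 UMIs, the ratio to isotype control was 3.21 (1.63 to 6.32) in the combination. It was 1.87 (0.834 to 4.21) in the library titled anti-human CTLA-4 and 2.06 (0.835 to 5.07) in that titled anti-mouse FcgRII. Both of the latter intervals hold both directions. Median depth in neutrophils was 2864 to 3398 UMIs. Their own 8 marker genes summed to 61606, 52401, 65018 and 35677 CPM, lowest in the combination, and the macrophage list to 1292, 1396, 1352 and 1529 CPM, and the part of either in the Cxcl10 level was not tested. Cxcl9 stood at 72.2, 487, 451 and 373 CPM, with both single-antibody libraries above the combination. In those libraries 1 cell held 37.4% and 79.5% of the neutrophil Cxcl9 UMIs, and in isotype control 1 cell held 71.4% of 21 UMIs. Without the top cell of each library the levels were 20.8, 313, 98.8 and 334 CPM, with the combination highest, as it was in the share of neutrophils with Cxcl9 at 2000 UMIs per cell, 4.59%, 14.2%, 8.84% and 22.0%. The complement genes C1qa, C1qb and C1qc, which macrophages express, gave a measure of macrophage RNA in other cells, although they are also gate genes that bound it there and so raise such ratios. Per C1q UMI, neutrophils held 21.2 (14.4 to 30.1), 143 (126 to 161), 238 (194 to 288) and 78.8 (75.4 to 82.4) times as many Cxcl10 UMIs as the macrophages of their own library. These values rest on only 77, 73, 26 and 595 C1q UMIs in neutrophils. Their intervals cover the Cxcl10 count alone and leave out the error of the C1q count, so the order of the libraries is uncertain.

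Shares of cells were compared after every cell was reduced to 2000 UMIs, because depth differed between classes and libraries. At that depth, 29.0%, 45.9%, 24.3% and 61.5% of macrophages held a Cxcl9 UMI, and 14.2%, 19.6%, 11.4% and 28.4% a Cxcl10 UMI. Without the reduction these shares were 47.7%, 66.5%, 41.3% and 83.7% for Cxcl9 and 29.1%, 39.2%, 25.2% and 53.6% for Cxcl10. The order of the libraries was the same with and without it. In classical monocytes the reduced shares were 20.5%, 24.3%, 18.3% and 45.4% for Cxcl9 and 17.1%, 19.7%, 15.3% and 33.3% for Cxcl10, and in neutrophils those of Cxcl10 were 9.91%, 18.6%, 20.4% and 31.9%. Free RNA can give UMIs to cells that do not express a gene. CD8 T cells, as a class that should be low in Cxcl9, held it in 7.60%, 4.61%, 4.64% and 20.6% of cells at the same depth, with median UMI counts between 4941 and 6893.

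Some myeloid genes, but not all, were higher in the same cells. CD8-gated cells of the combination held Cxcl9 at 371 CPM, against 41.6 in isotype control, and in the same cells Nos2, the inducible nitric oxide synthase of myeloid cells, was 765 against 8.00 CPM and the neutrophil-attracting chemokine Cxcl2 was 272 against 3.20 CPM. Over all genes, 5.33% of 5518 were at least 2-fold higher in CD8 T cells of the combination and 1.61% at least 2-fold lower. The macrophage list summed to 830.3, 352, 412 and 1134 CPM in CD8 T cells, its C1q genes to 272, 122, 176 and 266 CPM, and the chemokine Ccl2 was at 56.0, 8.48, 8.11 and 19.7 CPM, so the C1q genes and Ccl2 did not exceed their isotype level in the combination. The C1q genes are on the macrophage list, which the gate bounds in these cells. Of the macrophage state genes, Arg1 was at 166, 148, 62.9 and 2043 CPM and Hmox1 at 28.8, 75.1, 40.6 and 711 CPM. Folr2 and Cbr2, with few UMIs, were not higher. Per C1q UMI, these cells held 9.48 (8.82 to 10.2) times the Cxcl9 of macrophages in the combination and 2.74 (1.79 to 4.01) times in isotype control. The intervals cover the Cxcl9 count alone, beside 554 and 170 C1q UMIs in these cells. The part of myeloid RNA in lymphocyte Cxcl9 was not tested, and chemokine levels of lymphocytes are not read further as expression by lymphocytes. Tumor or stromal cells that had passed the sort, 59, 59, 73 and 41 of them, held Cxcl10 at 118, 290.2, 138 and 906 CPM and Cxcl9 at 38.7, 144, 82.2 and 407 CPM. Both chemokines were highest in the combination in these cells too, and the ratio to isotype was 7.66 (6.82 to 8.62) for Cxcl10 and 10.5 (8.61 to 13) for Cxcl9, the latter 6.59 without the top cell of each library. These intervals count UMIs of 59 and 41 cells and leave out the spread between cells. With depth reduced as above, 6.40%, 12.8%, 7.34% and 17.7% of these cells held Cxcl9. For Cxcl10 the shares were 6.27%, 15.6%, 11.9% and 32.9%. The contrast between combination and isotype control was smaller in these shares than in CPM.

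Chemokine UMIs were concentrated in few macrophages, and least so in the combination. The 10% of macrophages with the most Cxcl9 UMIs held 73.5%, 58.6%, 79.9% and 49.2% of all Cxcl9 UMIs of the class, and for Cxcl10 the values were 89.3%, 83.6%, 94.5% and 73.3%. The median macrophage held 0, 1.85, 0 and 7.54 Cxcl9 UMIs per 10000 UMIs, and the 90th percentile was 26.8, 47.6, 21.1 and 56.7. In isotype control and the library titled anti-mouse FcgRII the median macrophage thus held no Cxcl9 UMI. No single cell held more than 0.939% of macrophage Cxcl9 or 2.27% of macrophage Cxcl10 in any library.

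The ligands overlapped in part of the cells. At 2000 UMIs per cell, 6.99%, 12.9%, 5.90% and 21.8% of macrophages held both, 22.0%, 33.0%, 18.4% and 39.7% held Cxcl9 alone, and 7.2%, 6.68%, 5.51% and 6.57% held Cxcl10 alone. At this depth the share with Cxcl10 alone differed little between libraries, but without the reduction it was 10.7%, 7.51%, 9.78% and 5.17%, lowest in the combination. Of macrophages with Cxcl10, 49.3%, 65.8%, 51.7% and 76.8% also held Cxcl9, against 25.6%, 41.1%, 20.7% and 55.5% of macrophages without Cxcl10. Among neutrophils, 11.7%, 17.7%, 16.4% and 28.0% of Cxcl10-holding cells held Cxcl9. The number of Cxcl9 UMIs per Cxcl10 UMI ordered the classes: 2.94, 3.70, 2.66 and 3.32 in macrophages, 3.96, 3.09, 3.05 and 2.61 in dendritic cells, 1.14, 1.40, 1.64 and 1.21 in classical monocytes, 0.514, 0.696, 0.542 and 1.32 in nonclassical monocytes, 0.677, 0.576, 0.743 and 0.292 in neutrophils and 0.327, 0.498, 0.597 and 0.449 in tumor or stromal cells. In each library macrophages and dendritic cells were above classical monocytes, and these above neutrophils and tumor or stromal cells, whereas nonclassical monocytes were near the neutrophils in 3 libraries and, from 69 Cxcl10 UMIs, above classical monocytes in the combination. The ratio sets UMIs of different probes against each other, so its absolute size has no meaning and only its comparison across classes has.

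**Figure D2:**
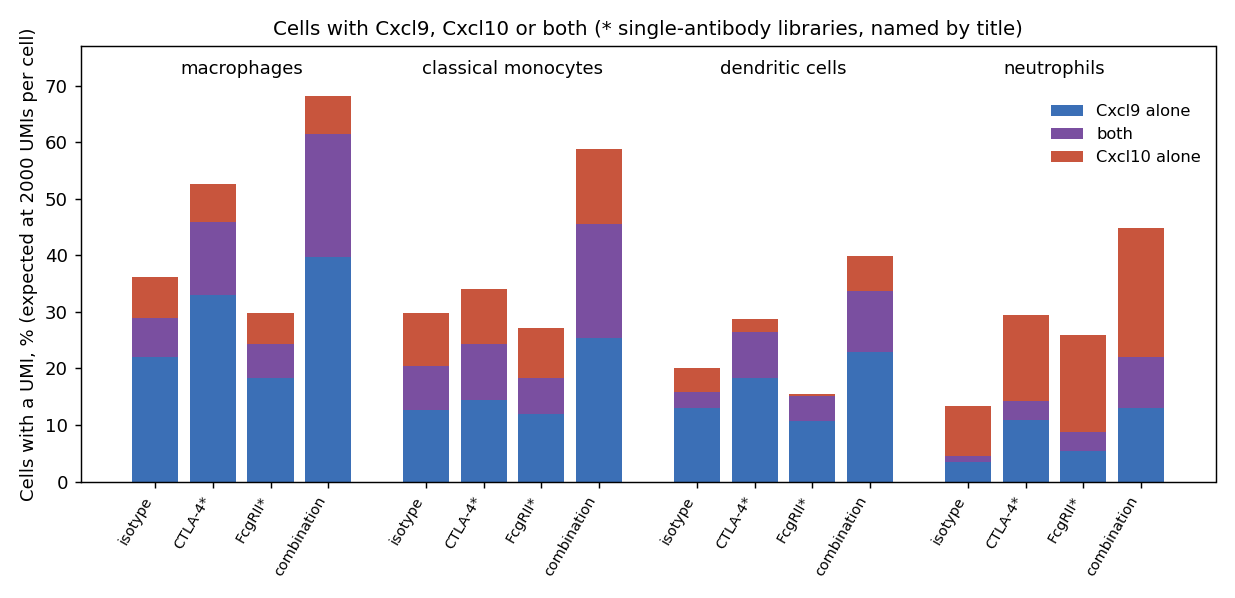
Share of cells (%) with both chemokines, Cxcl9 only or Cxcl10 only, after each cell was reduced to 2000 UMIs, by class and library. In macrophages the share with both goes from 6.99% in isotype control to 21.8% in the combination, while that with Cxcl10 only lies between 5.51% and 7.2%.

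Macrophages that held only one ligand, by all their UMIs, differed in their other genes. The summed level of 11 type I interferon-stimulated genes (among them Ifit1, Isg15 and Rsad2, antiviral effectors) was 2404, 2443, 2201 and 2793 CPM in macrophages with Cxcl10 only. It was 557, 636, 466 and 717 CPM in those with Cxcl9 only, close to the 522, 669.7, 372 and 639 CPM of macrophages with neither. The list was thus higher beside Cxcl10 alone than beside Cxcl9 alone, in each library. The interferon gamma-inducible list was not divided this way, with 2933, 3186, 2303 and 5577 CPM beside Cxcl10 only, 3138, 3499.7, 2469 and 5452 CPM beside Cxcl9 only, and 5064, 5698, 4888 and 7308 CPM beside both. MHC class II genes, which present peptides to CD4 T cells, went the other way, with 14832, 12798, 7614 and 18389.9 CPM beside Cxcl10 only and 31263, 33344, 19013 and 33711 CPM beside Cxcl9 only. Macrophages with both ligands combined these features, with 1682, 2189, 1936 and 1559.9 CPM of the interferon-stimulated list and 29256, 33570.4, 21834 and 31267 CPM of MHC class II. Median depth differed between these groups: 18560.5, 19787, 22668 and 16838 UMIs with Cxcl10 only, 17592, 20102, 21115 and 20704 with Cxcl9 only, and 22260.0 to 27469 with both. The groups numbered between 178 and 2028 cells. The same division was present in classical monocytes, where the interferon-stimulated list was 4616, 4227, 2809 and 3779 CPM beside Cxcl10 only and 1077, 1251, 1084 and 1360.2 CPM beside Cxcl9 only. In neutrophils it was 28927, 17414, 18736 and 16105 CPM beside Cxcl10 only, from 10, 13, 8 and 93 cells, and 10709.6, 3502, 2313 and 3492 CPM beside Cxcl9 only, from 4, 11, 2 and 61 cells.

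**Figure D3:**
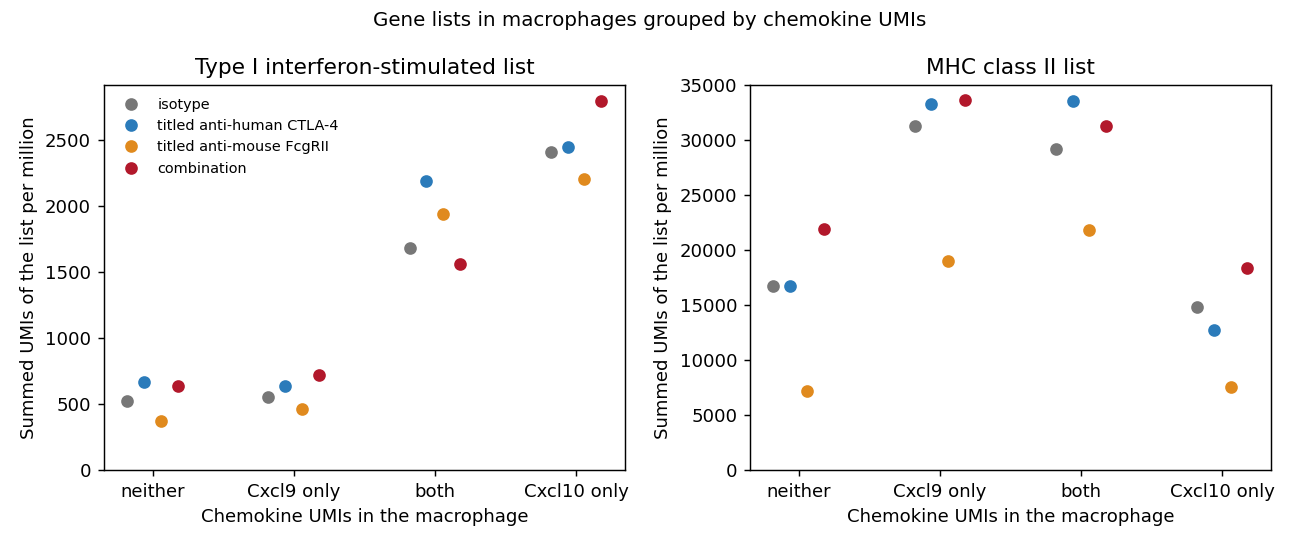
Summed level (UMIs per 1000000) of the type I interferon-stimulated list (left) and the MHC class II list (right) in macrophages with neither chemokine, Cxcl9 only, both, or Cxcl10 only; each point is 1 library. The interferon-stimulated list lies between 2201 and 2793 with Cxcl10 only and between 466 and 717 with Cxcl9 only, and MHC class II is higher with Cxcl9 only in each library.

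A second view ranked all macrophages by a list's share of their UMIs and divided them into 4 equal bins over the libraries together. Bins are ranges of a score and not cell types. By the 17 interferon gamma-inducible genes (guanylate-binding proteins, immunity-related GTPases, Cd274, Nos2, Ciita and others, without the members), the top bin held 15.8%, 25.1%, 10.7% and 52.9% of the macrophages of each library and the lowest 27.5%, 15.9%, 46.5% and 5.06%. The combination therefore had most of its macrophages in the top bin, and the library titled anti-mouse FcgRII had nearly as many in the lowest. Within the top bin Cxcl9 stood at 2822, 3385, 3271 and 2839 CPM and Cxcl10 at 1122, 1199, 1514 and 960.3 CPM, so the combination was close to isotype control in Cxcl9 and the lowest of the 4 in Cxcl10 there. In the lowest bin Cxcl9 was 100.2, 136, 98.1 and 200.2 CPM and Cxcl10 was 27.7, 32.7, 18.1 and 41.1 CPM. Near the limit of the top bin, 55.3 UMIs per 10000, 231, 276, 158 and 338 macrophages lay within 1.1-fold.

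Shares of the bins and levels within them were then exchanged one at a time. With the levels of isotype control and the bin shares of the combination, the macrophage Cxcl9 level would be 2.27 times that of isotype control, and with the shares of isotype control and the levels of the combination it would be 1.41 times, beside the measured 2.56. For Cxcl10 the values were 2.54 and 0.993, beside the measured 2.27. Within single bins the combination-to-isotype ratio ran from 1.01 to 2.29 for Cxcl9 and from 0.856 to 1.49 for Cxcl10. The 2.27-fold difference in macrophage Cxcl10 thus went with more cells in the upper bins of the interferon gamma-inducible list, at levels that within bins lay on both sides of those of isotype control. Ranking by the type I interferon-stimulated list gave the opposite division, with 1.16 from shares and 2.19 from levels for Cxcl9, and 1.31 and 1.80 for Cxcl10. In classical monocytes the interferon gamma-inducible bins gave 1.97 from shares and 1.38 from levels for Cxcl9, and 1.93 and 1.19 for Cxcl10. By MHC class II bins, Cxcl9 of isotype macrophages went from 173 CPM in the lowest to 1694 CPM in the top bin, whereas Cxcl10 went only from 239 to 292 CPM. By the type I list, Cxcl10 of isotype macrophages went from 50.5 to 716 CPM and Cxcl9 from 385 to 1159 CPM.

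**Figure D4:**
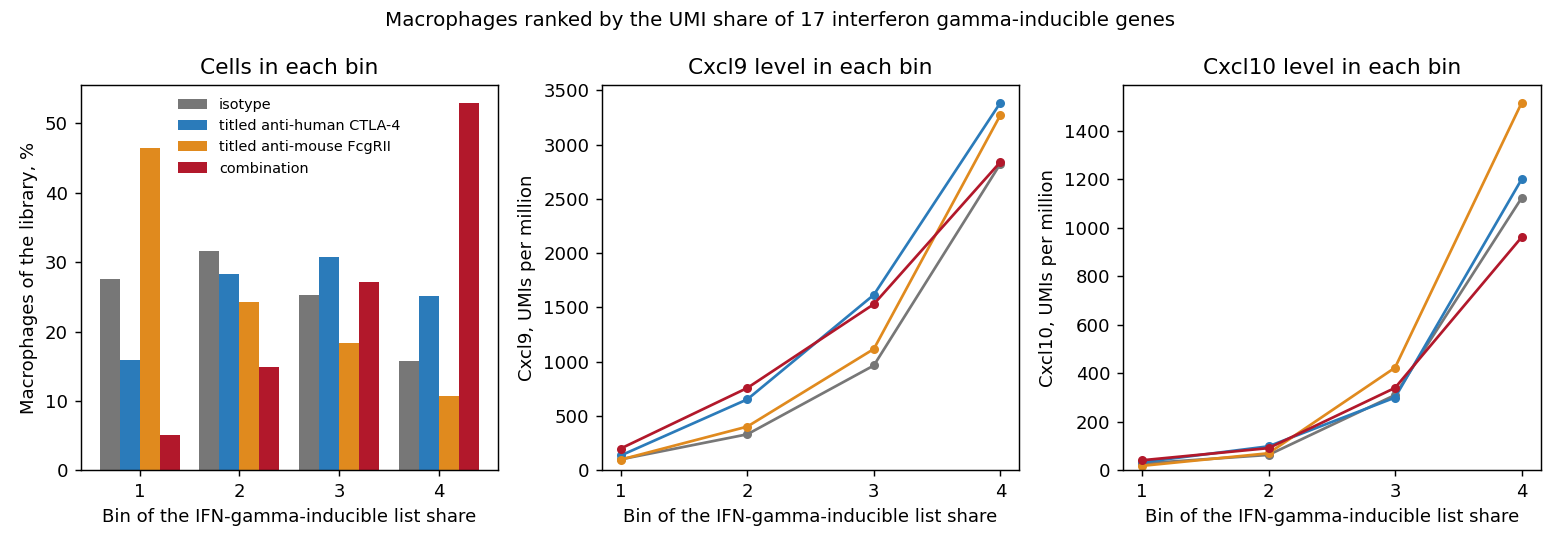
Macrophages in bins of the UMI share of 17 interferon gamma-inducible genes: the percentage of each library's macrophages in each bin, and the level of Cxcl9 and of Cxcl10 (UMIs per 1000000) in it. The top bin holds 52.9% of the macrophages of the combination and 15.8% of those of isotype control, while Cxcl9 in that bin is 2839 and 2822 CPM.

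Single genes of macrophage states gave smaller contrasts. Nos2 marks inflammatory macrophages, and 9.08%, 15.4%, 6.45% and 40.7% of macrophages held a UMI of it at 2000 UMIs. Cxcl9 was 1246, 1886, 1277 and 2239 CPM in macrophages with Nos2 and 757, 1463, 646 and 1917 CPM in those without. The difference was thus smaller in the combination. Cells counted as without a gene at 2000 UMIs can hold it at full depth. No interval was computed, so the 1917 CPM without Nos2 in the combination was not ranked against the 1886 CPM with it in the library titled anti-human CTLA-4. Spp1, the gene of osteopontin, marked lower values: with it, Cxcl9 was 566, 846, 451 and 1498 CPM, and without it 981, 1906, 954 and 2374 CPM. Cells with Arg1, the gene of arginase 1, held 703, 1252, 559 and 1881 CPM, and those without it 1008, 2109, 1011 and 3094 CPM. For Folr2, a marker of tissue-resident-like macrophages, the values were 504, 1023, 437 and 1833 CPM with it and 856, 1649, 778 and 2099 CPM without it.

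The pathway genes of the macrophages were read from fixed lists, as combination-to-isotype ratios, against a median of 0.933 over all 4626 genes. Of 15 interferon gamma-inducible genes above the 50 CPM filter, 15 were higher and 6 at least 2-fold higher, with a median of 1.75. Nos2 had the highest ratio, 8.93, at 101, 235, 67.8 and 903 CPM, and Ciita, the master regulator of MHC class II genes, the lowest, 1.04, at 161, 171, 82.9 and 167 CPM. Of 8 genes of interferon gamma signalling, 2 were at least 2-fold higher, among them Socs1, a feedback inhibitor of the pathway, at 84.2, 117, 59.7 and 296 CPM with the highest ratio, 3.51. Ifngr1, the ligand-binding receptor chain, had the lowest ratio, 0.626, at 368, 299, 309.8 and 231 CPM. None of 9 type I interferon-stimulated genes was at least 2-fold higher, with a median of 1.14 between 0.856 for Ifit3 and 1.63 for Oasl1. None of 7 type I signalling genes was, with a median of 0.957 between 0.850 for Ifnar1, a receptor chain, and 1.42 for Irf7, a transcription factor, and none of 9 genes of TNF and NF-kB was, with a median of 1.29 between 0.997 for Nfkb1 and Rela and 1.73 for the inhibitor Nfkbia. Of the other chemokines, 3 of 11 were at least 2-fold higher: Ccl5, a chemokine that attracts T cells, with 293, 501, 192 and 1399.9 CPM and the highest ratio, 4.77, Ccl8 with 3.27 and Cxcl2 with 2.35, and Ccl6, at 186 and 371 CPM in isotype control and combination, fell just short. Ccl4 had the lowest, 0.944. Of 6 stress genes, which mark handling as well as heat shock, 0 were higher and 2 were at least 2-fold lower, Hspa1a and Hspa1b, each at a ratio of 0.181, and the part of this in the chemokine levels was not tested.

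The other classes gave the interferon gamma-inducible list different values. In classical monocytes 15 of 16 genes were higher and 3 at least 2-fold higher (median 1.49, against 0.939 over all genes, from 0.929 for Ciita to 8.53 for Nos2), and in dendritic cells 14 of 16 were higher and 5 at least 2-fold higher (1.42 against 0.930). Neutrophils had 14 of 14 higher and 10 at least 2-fold higher (2.19 against 0.973), from 1.66 for Cd274, the gene of PD-L1, to Nos2, which had 1 UMI in isotype control and 462 in the combination. In CD8 T cells 13 of 15 were higher, with a median of 1.26, and in CD4 T cells 6 of 16, with a median of 0.934. The median over all genes is given below for CD8 T cells and was not set beside the CD4 value. Nos2, a myeloid gene described above, had the highest ratio of the list in both, 95.7 in CD8 and 4.57 in CD4 T cells. The part of myeloid RNA in these list values was not tested, so they are not read as a response of T cells. Ifng itself was held by lymphocytes: 672, 1398, 633 and 1424 CPM in CD8 T cells, 102, 415, 135 and 113 CPM in CD4 T cells and 315, 285, 207 and 116 CPM in NK and ILC1-like cells. CD8 T cells of the combination and of the library titled anti-human CTLA-4 were both above isotype control in Ifng, and the ratio was 2.12 (1.91 to 2.35) for the combination. In NK and ILC1-like cells the ratio was 0.367 (0.317 to 0.425), in the opposite direction.

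Cxcr3 was held by T cells, NK cells and plasmacytoid DCs, and was low in macrophages and classical monocytes, which were gated for few lymphocyte UMIs. Mixed profiles, outside that gate, held both the receptor and its ligands. The Cxcr3 level in macrophages was 3.28, 3.17, 2.47 and 2.29 CPM, with a UMI in 0.657%, 0.608%, 0.463% and 0.479% of cells at 2000 UMIs, and in classical monocytes 1.5, 0.709, 1.24 and 0.923 CPM. Conventional CD4 T cells, the CD4 T cells without Foxp3, had 514 (451 to 584), 478 (435 to 524), 482 (377 to 607) and 354 CPM (310.4 to 403), with a UMI in 58.6%, 53.5%, 57.0% and 51.2% of cells at 2000 UMIs and in 67.6%, 65.2%, 67.6% and 72.8% without the reduction. Regulatory T cells, with Foxp3, had 259, 546, 342 and 363 CPM, of 77, 45, 34 and 7 cells. In CD8 T cells it was 173, 177, 199 and 151 CPM, and in T cells without a CD4 or CD8 call 280.0, 379, 198 and 195 CPM. Eomes-positive NK cells had 76.2, 85.4, 81.4 and 38.7 CPM, and ILC1-like cells, tissue-resident relatives of NK cells, 114, 152, 92.1 and 107 CPM. Plasmacytoid DCs, specialists in type I interferon, had 136, 179.6, 268 and 36.2 CPM from 20, 13, 4 and 7 cells. In cDC1 there were 2, 5, 0 and 14 UMIs, in B cells 3, 0, 0 and 7, and in migratory DCs 0 in each library, which allows up to 9.86, 12.5, 28.8 and 6.39 CPM.

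The order of the classes was clear at its ends only. In isotype control, conventional CD4 T cells were above every other class, and the intervals of regulatory T cells (213 to 312 CPM) and T cells without a call (232 to 336 CPM) overlapped, as did those of CD8 T cells (142 to 209 CPM), plasmacytoid DCs (88.1 to 201 CPM) and ILC1-like cells (72.2 to 171 CPM). Eomes-positive NK cells (61.2 to 93.8 CPM) were below CD8 T cells in each library. In the library titled anti-human CTLA-4, regulatory T cells (461 to 643 CPM) were not below conventional CD4 T cells (435 to 524 CPM).

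Cxcr3 was not higher in the combination in any T or NK cell class beyond counting error. The combination-to-isotype ratio was 0.874 (0.7 to 1.1) in CD8 T cells, 0.689 (0.573 to 0.830) in conventional CD4 T cells and 0.508 (0.370 to 0.696) in Eomes-positive NK cells. It was 0.943 (0.561 to 1.63) in ILC1-like cells and 1.40 (0.835 to 2.25) in regulatory T cells, intervals that hold both directions. In the library titled anti-human CTLA-4, regulatory T cells stood 2.11 times above isotype control in CPM (1.64 to 2.72). The ratio of the share of these cells with a UMI at 2000 UMIs was 1.37 (0.874 to 2.16), an interval that holds both directions. In CD4 T cells of both kinds the combination-to-isotype ratio of CPM was 0.910 (0.771 to 1.07), beside 4.30% of 5537 genes at least 2-fold higher and 2.02% at least 2-fold lower. In NK and ILC1-like cells as 1 class it was 0.651 (0.507 to 0.837), beside 1.15% of 5319 genes at least 2-fold higher and 0.395% at least 2-fold lower. In CD8 T cells the share of cells with a UMI at 2000 UMIs was 29.0%, 30.6%, 34.1% and 28.3%, and in Eomes-positive NK cells 14.8%, 16.1%, 18.6% and 8.82%. The NK value of the combination was the lowest of the 4 on both scales, but the share ratio to isotype control was 0.597 (0.344 to 1.04), an interval that holds both directions. NK and ILC1-like cells held 122, 222, 105 and 140 Cxcr3 UMIs beside 6859, 10325, 5132 and 9322 UMIs of the NK cell list. No interval was computed on that scale, so the NK difference was not read on it. Median depth was not equal, and CPM in lymphocytes also counts the UMIs of the myeloid genes described above. Per 1000 UMIs of 8 T cell genes (Cd3d, Trac and others), which leave those out, Cxcr3 in CD8 T cells was 16.3 (13.4 to 19.7), 15.5 (14.1 to 17), 16 (13 to 19.5) and 20.2 (18 to 22.5), and in conventional CD4 T cells 60.2 (52.8 to 68.5), 49.9 (45.4 to 54.7), 45.5 (35.6 to 57.2) and 51.5 (45.1 to 58.6). In regulatory T cells it was 29.4 (24.2 to 35.3), 56.6 (47.7 to 66.6), 40.3 (32.3 to 49.7) and 44.7 (27.7 to 68.3). There the intervals of isotype control and the library titled anti-human CTLA-4 were apart. On that scale the combination was the highest of the 4 in CD8 T cells, so the direction of the CD8 difference depends on the denominator. Its CD8 interval was apart from that of the library titled anti-human CTLA-4 but overlapped that of isotype control.

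CD8 T cells with a Cxcr3 UMI differed from those without in each library. The genes of naive and recirculating T cells were higher beside Cxcr3. Tcf7, a transcription factor of stem-like T cells, was 2.47, 3.76, 2.76 and 2.98 times as high in Cxcr3-holding CD8 T cells, Klf2 2.17, 2.70, 2.57 and 1.83 times, and S1pr1, the receptor for exit from tissue, 2.71, 5.47, 2.97 and 3.51 times. The cytotoxic gene Prf1, which encodes perforin, was lower at 0.245, 0.179, 0.258 and 0.433 times. Gzmb (granzyme B) was at 1.23, 0.359, 0.813 and 0.528 times and Ifng at 0.17, 1.19, 0.482 and 0.437 times, so neither had 1 direction in all libraries. These comparisons rest on 87, 283, 63 and 197 CD8 T cells, of which about 25.3, 86.6, 21.5 and 55.8 held Cxcr3 after the reduction to 2000 UMIs. In NK and ILC1-like cells Prf1 was 0.443, 0.547, 0.626 and 0.512 times and Gzmb 0.320, 0.419, 0.643 and 0.537 times as high beside Cxcr3, lower in each library. This class pools Eomes-positive NK cells with ILC1-like cells, whose Cxcr3 levels differed as given above. The part of that mixture in these ratios was not tested. In conventional CD4 T cells Tbx21, the transcription factor of type 1 helper cells, was 1.63, 1.74, 2.10 and 1.56 times as high beside Cxcr3, and Ccr8, a receptor of tumor regulatory T cells, 0.167, 0.394, 0.168 and 1.20 times.

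The surrounding receptor and effector genes of lymphocytes did not share 1 direction. In CD8 T cells, of 6 other chemokine receptors above the filter, 4 were higher, 0 were at least 2-fold higher and 1 was at least 2-fold lower in the combination, with a median ratio of 1.25 against 0.931 over all genes. Ccr7, the receptor for lymph node entry, was the lowest of them at 206, 77.9, 114 and 44.1 CPM (0.214). Of 6 naive and egress genes 4 were at least 2-fold lower, with a median of 0.383 between 0.317 for Tcf7 and 0.894 for Lef1. Of 12 genes of the type 1 lymphocyte programme 1 was at least 2-fold higher, Ifng, and the median was 0.884, with Il18r1 lowest at 0.645. All these ratios are of CPM, which in lymphocytes also counts the UMIs of the myeloid genes described above. They were not computed per T cell list UMI, so their direction on that scale is not known. In CD4 T cells, Cxcr6, a receptor for the macrophage chemokine CXCL16, was the receptor with the highest ratio, 2.35, at 302, 488, 469.8 and 710.2 CPM, and Ccr2 had the lowest, 0.403. Of the type 1 genes there, Il12rb2, an interleukin 12 receptor chain, had the highest ratio, 2.89, and Gzmb the lowest, 0.387. Dpp4, a peptidase that truncates the CXCR3 ligands, was at 202, 162, 170.3 and 103 CPM in dendritic cells and at 5.58 CPM or less in macrophages, and Ackr3, a scavenging receptor that binds CXCL11, was at 1.42 CPM or less in macrophages.

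Most chemokine UMIs of a library came from macrophages and mixed profiles. Macrophages held 49.7%, 74.0%, 73.2% and 55.9% of the Cxcl9 UMIs, mixed profiles 44.8%, 20.4%, 20.1% and 38.3%, and classical monocytes 4.31%, 3.29%, 4.33% and 3.40%. For Cxcl10 macrophages held 47.4%, 62.8%, 70.5% and 47.3% and classical monocytes 10.5%, 7.40%, 6.79% and 7.87%, against 5.61%, 5.47%, 3.40% and 4.42% of all UMIs. Neutrophils held 0.0675%, 0.531%, 0.302% and 1.76% of Cxcl10, so that their high level per UMI made up a small part of the total. With each mixed profile put into the lineage whose list stood higher relative to that lineage's own median, macrophages held 93.4%, 93.6%, 92.6% and 92.7% of Cxcl9 and 86.1%, 84.6%, 87.3% and 83.1% of Cxcl10. In that assignment the libraries differed little in the macrophage share of Cxcl9. T cells then held 18.3%, 44.5%, 21.0% and 25.5% of Cxcr3.

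**Figure D5:**
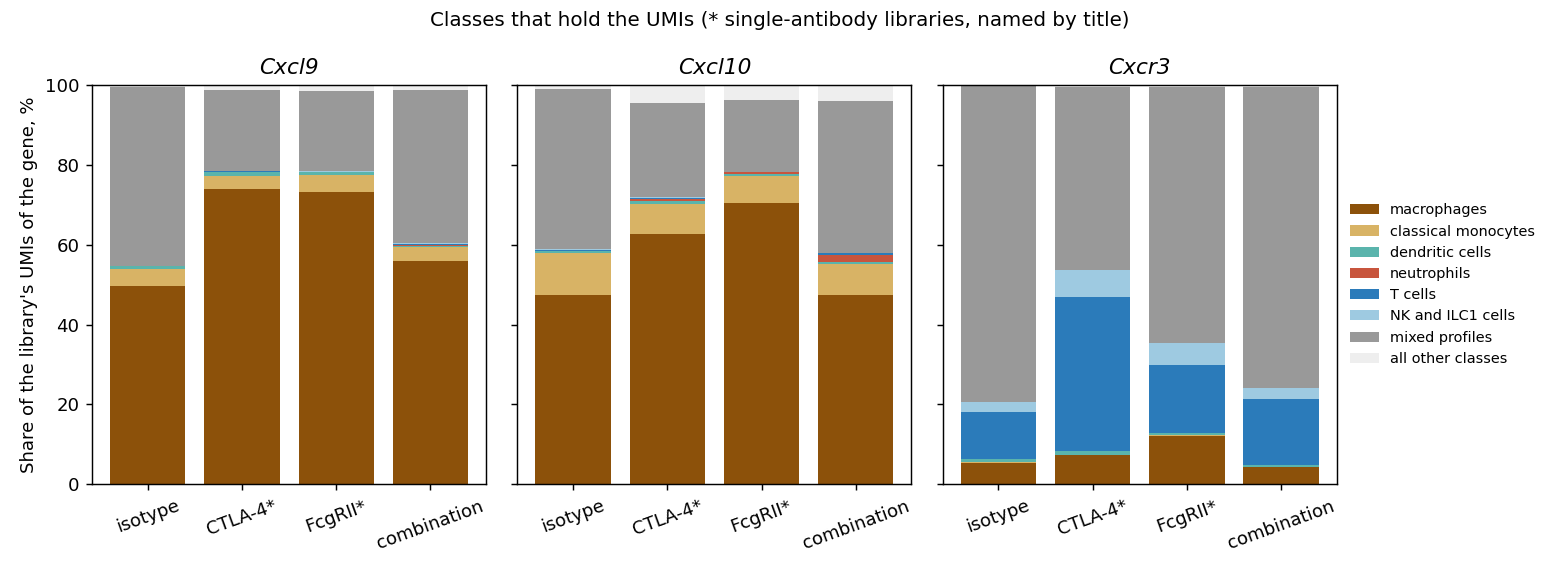
Share (%) of each gene's UMIs of a library that each class holds, by library, for Cxcl9, Cxcl10 and Cxcr3. Macrophages and mixed profiles together hold most Cxcl9 and Cxcl10 UMIs, and mixed profiles hold 79.2%, 45.8%, 64.2% and 75.4% of the Cxcr3 UMIs.

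Receptor UMIs lay mostly outside the T cell classes. Mixed profiles held 79.2%, 45.8%, 64.2% and 75.4% of Cxcr3 UMIs, T cells 11.7%, 38.7%, 17% and 16.4%, and macrophages 5.39%, 7.28%, 12% and 4.24%. Of the mixed profiles, 1420, 584, 587 and 1301 had more T cell than NK cell marker UMIs, and 67.4%, 64.9%, 61.8% and 68.8% of these held Cxcr3 without reduction of depth. Per 1000 T cell list UMIs, mixed profiles held 38.1 (36.9 to 39.3), 32 (30.5 to 33.7), 30.1 (28.4 to 31.8) and 35.9 (34.8 to 37.1) Cxcr3 UMIs, and T cells held 33.2 (30.6 to 36.1), 29.4 (27.8 to 31.0), 28.2 (25.3 to 31.4) and 31.0 (28.9 to 33.2). The mixed profiles thus carried Cxcr3 at or slightly above the T cell rate, with intervals apart in isotype control and the combination only.

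Cells with a Cxcr3 UMI were about as frequent in the combination as in isotype control. Without reduction of depth they numbered 1945, 1777, 1289 and 1995 per 10000 kept cells, of which T cells without a mixed profile gave 234, 579.8, 192 and 362 and mixed profiles 1335, 665, 697 and 1303. Over whole libraries the Cxcl9 level was 722, 1233, 625 and 1694 CPM, that of Cxcl10 258, 392, 244 and 604 CPM and that of Cxcr3 27.4, 26.1, 13.8 and 25 CPM. When class shares and class levels were exchanged one at a time, the 2.34-fold difference of Cxcl9 between the combination and isotype control was 2.42 from levels and 0.961 from shares, and that of Cxcl10, also 2.34, was 2.40 and 0.962. Both ligand differences over whole libraries therefore went with higher levels within classes, not with the makeup of classes. For Cxcr3 the ratio was 0.913, with 0.937 from levels and 1.01 from shares, and the library titled anti-mouse FcgRII stood at 0.503 of isotype control with 0.902 from levels and 0.565 from shares, a difference that went with a smaller share of the Cxcr3-holding classes.

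The genes most like each member were ranked by Pearson's correlation over 24 sums, 6 classes in 4 libraries, among 7236 genes. These sums share their libraries, and the correlation is a description. For Cxcl9 the nearest included Lgals3, Cyfip1, Creg1, Ctsc, Mpeg1, Cxcl16 and Slc31a2, with r between 0.95 and 0.96, among them the macrophage genes Mpeg1 and Lgals3. Of these, Cxcl16, another chemokine of macrophages, was nearly level between libraries in macrophages, at 1061, 1152, 1033 and 1150.0 CPM. For Cxcl10 they were Ifi204, Fndc3b, Stard3, Cd300lf, Itprid2, Rhog, Sav1 and Card19, with r between 0.89 and 0.92, led by the interferon-inducible gene Ifi204. For Cxcr3 they were Leprotl1, Lef1, Pitpnm2, Acsbg1, Cd160, Ubash3a, Trbc2 and Nt5dc1, with r between 0.98 and 0.99, of which Lef1 and Ubash3a are T cell genes and Trbc2 is one of the T cell gate genes. Such lists mostly follow the difference between myeloid and lymphoid classes.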

How the data were processed

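The authors made the deposited UMI counts per gene and cell with Cell Ranger (7.2.0 in the file headers, 7.0.0 in the submitters' processing notes, which name mm10) from barcodes called as cells. No normalization or later filter had been applied. Cells with at least 500 genes and at most 10% mitochondrial UMIs were kept. A cell entered a class when a marker list reached a minimum of 8 to 64 UMIs per 10000 with at least 2 of its genes, limits set from the list sums of these libraries. Class UMIs were summed and scaled per 1000000. Shares of cells with a UMI are expected values after drawing each cell to 2000 UMIs, and shallower cells were left out. Intervals are exact Poisson, binomial or conditional binomial at 95%, except those of ratios of shares of cells, which use a normal approximation. Intervals of values per C1q UMI or per T cell list UMI cover the count of the member alone. Genes above 50 CPM in either library entered counts of 2-fold differences. The members and lists were chosen with earlier results of these data known. The text names the members, the list genes with the highest and lowest ratio, and the 8 genes most correlated with each member, by log2(CPM + 1). Other named list genes (Ccl8, Ccl2, Cxcl2, Ccl6 and Hspa1a, Nos2 in CD8 T cells, the macrophage state genes and the genes beside Cxcr3) were chosen after their values were seen. Nearly every cell held a UMI of the interferon and MHC class II lists, so these lists were split into bins of their share instead of presence. Of 235 listed genes, 4 were not analysed here, and some genes that the naming rule selects are not reported here. Intervals do not cover the spread between mice. Python 3.11.15, numpy 2.4.6, scipy 1.17.1, pandas 2.3.3 and matplotlib 3.10.9 were used. Ratios, their intervals and 2-fold calls were tested on simulated Poisson counts, which hold no spread beyond counting error. Drawing down was tested against random draws. The other steps were not tested in this way. Gene positions are from the GENCODE annotation of GRCm38.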

Additional observations from a re-analysis of the deposited data

Results flagged for a closer look

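In CPM, though not in the share of cells, Cxcl10 of 1 class lay in the opposite direction from 5 other classes between the combination and isotype control. The combination-to-isotype ratio was 2.27 in macrophages, 2.22 in classical monocytes, 2.08 in Cd209a DCs, 12 in neutrophils and 2.98 in conventional CD4 T cells, and 0.298 (0.212 to 0.413) in Eomes-positive NK cells. The NK cell level was 95, 39.3, 23.1 and 28.3 CPM in isotype control, the library titled anti-human CTLA-4, that titled anti-mouse FcgRII and the combination, from 111, 64, 21 and 57 UMIs, and the share of NK cells with a UMI at 2000 UMIs was 4.72%, 3.36%, 2.79% and 4.88%, a ratio of 1.03 (0.430 to 2.49), so the opposite direction rests on the level alone, in a class whose chemokine UMIs are not read as its own expression. The difference between classes was not tested, since each group is 1 library. In CD8 T cells the Cxcl10 ratio was 0.895 (0.685 to 1.18), and 11.8 without the top cell of each library.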

How the results depend on the processing

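Each check set 1 result under 1 alternative against its reported value. Among checks of the main results, 92 stayed within the interval of the reported value and 25 left it. Among checks of the other results, 99 stayed and 43 left. For shares of UMIs these used an interval, and for gene counts and lists of similar genes a fixed limit without an interval. The main Cxcl9 and Cxcl10 ratios in macrophages, classical monocytes, dendritic cells (Cxcl9) and neutrophils (Cxcl10) stayed above 1. The Cxcr3 CPM ratio in CD4 T cells (0.910) reached 1.00, and the Cxcr3 share ratio, whose interval holds both directions, crossed 1 in CD8 T cells (0.975, from 0.926 to 1.33) and in CD4 T cells (1.06, from 0.995 to 1.29). With gates at 2 times the minimum, the combination-to-isotype ratio was 2.64 for Cxcl9 in macrophages (2.56 in the report), 3.97 for Cxcl9 in dendritic cells (2.11) and 2.53 for Cxcl10 in classical monocytes (2.22). With gates at 0.5 times the minimum it was 2.25 for Cxcl9 and 2.06 for Cxcl10 in classical monocytes and 2.22 for Cxcl10 in macrophages. With mixed profiles put into the larger lineage it was 2.46 for Cxcl9 and 2.39 for Cxcl10 in macrophages and 0.740 for Cxcr3 in CD4 T cells. Without the 5% of cells with the most UMIs it was 2.44 for Cxcl9 and 2.21 for Cxcl10 in macrophages, 2.5 for Cxcl9 in classical monocytes and 1.74 in dendritic cells. As a mean over cells it was 2.40 for Cxcl9 and 2.01 for Cxcl10 in macrophages, and 2.53 and 2.33 in classical monocytes. With median-of-ratios size factors it was 2.78 and 2.46 in macrophages, and 2.49 and 2.35 in classical monocytes. The ratio of the share of macrophages with Cxcl9 was 2.12 at 2000 UMIs, 2.00 at 4000 UMIs and 1.75 without reduction, and that of neutrophils with Cxcl10 was 3.21 at 2000 UMIs, 13.2 at 4000 UMIs and 6.51 for at least 3 UMIs without reduction. Most neutrophils had fewer than 4000 UMIs and were left out at that depth. The causes were not tested.

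Leaving out the top cell of each library, an alternative chosen after the data were seen, took the neutrophil Cxcl10 ratio to 16.5, and over all alternatives this ratio lay between 10.6 and 16.5, that of Cxcr3 between 0.828 and 0.939 in CD8 T cells and between 0.634 and 0.749 in NK and ILC1-like cells. With a filter of 10 CPM, genes at least 2-fold higher and lower numbered 161 and 74 in macrophages, 189 and 88 in classical monocytes, 372 and 335 in dendritic cells, 1027 and 793 in neutrophils, 689 and 366 in CD8 T cells, 570 and 560 in CD4 T cells and 290 and 99 in NK and ILC1-like cells, against 102 and 34, 100 and 34, 169 and 70, 317 and 287, 294 and 89, 238 and 112, and 61 and 21. With size factors, 22, 18 and 45 genes were at least 2-fold lower in macrophages, classical monocytes and dendritic cells. Of the 8 genes most like each member, 6, 6 and 3 were shared under log2(CPM + 10) for Cxcl9, Cxcl10 and Cxcr3. No paired analysis was possible because each group is 1 library. Classes of few cells, above all cDC1, plasmacytoid DCs and regulatory T cells of the combination, limit the Cxcl9 and Cxcr3 values given for them.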

Other observations

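The droplet part of a cell barcode was shared between libraries for 31.4% to 34.8% of cells, while 0 full barcodes were. In isotype control, mixed profiles made up 22.7% of cells with a shared droplet barcode and 21.3% of the others. Foxp3, the defining gene of regulatory T cells, had 5260, 750, 2040 and 435 UMIs in the mixed profiles of isotype control, the library titled anti-human CTLA-4, that titled anti-mouse FcgRII and the combination. Mixed profiles with more NK than T cell list UMIs numbered 350, 131, 142 and 273, and Cxcr3 was present in 37.4%, 33.6%, 43.0% and 34.8% of them.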
